A study of Mus musculus with 20 samples.

Results

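The collagen genes are the genes whose symbol is Col, a number, a and a number (Col1a1, Col6a5). In all, 43 of the 20996 genes in the deposited liver and eWAT count tables matched. The liver table held 36 of them among its 15608 genes, and the eWAT (epididymal white adipose tissue) table held 43 among 20738. By class there were 11 fibrillar, 6 basement membrane, 6 type VI and 9 FACIT (fibril-associated) genes and 11 other types. A filter on low counts left 26 collagen genes tested in liver, 40 in eWAT and 36 in the joint fit of both tissues. The RNA came from male mice aged 2 months that were either wild type (WT) or IR 4A, a genotype in which the insulin receptor is altered in the motif that binds the checkpoint protein MAD2. The 4 groups were WT liver, IR 4A liver, WT eWAT and IR 4A eWAT, with 5 libraries each, and no group received a treatment. The labels number the libraries but name no animals, so each p-value measures the spread between libraries only.

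Collagens are the main structural proteins of the extracellular matrix, built from chains that wind into a helical trimer. Fibrillar types form the rope-like fibrils of connective tissue, type IV chains form the sheet of basement membranes, type VI chains form beaded filaments around cells and are abundant in fat, and FACIT collagens decorate the surface of fibrils. In liver the fibrillar chains are made mainly by stellate cells and portal fibroblasts, and in fat by progenitor cells and fibroblasts. In bulk tissue, fewer cells of a type and less RNA per cell cannot be told apart.

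Each library held between 17989420 and 24238359 counts in liver and between 13651874 and 21615358 in eWAT. The labelled tissues carried their own markers: 8 hepatocyte markers summed to 67504 to 83113 CPM (counts scaled by library size) in liver and 8 adipocyte markers to 2433 to 26357 CPM in eWAT. The eWAT libraries also held all 10 epididymis epithelium markers examined, which summed to 4926 to 18470 CPM in WT and 18492 to 26373 CPM in IR 4A. None of those 10 was in the liver table. The libraries standing apart in eWAT were WT 4, with the lowest epididymis sum and the highest adipocyte sum, and IR 4A 3 and IR 4A 4, with the lowest adipocyte sums (2433 and 3636 CPM, against 9502 to 13441 CPM in the other IR 4A libraries).

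The 250 bases before the annotated start are shown for 4 collagen genes whose IR 4A to WT ratio in eWAT was among the lower ones and whose window overlaps no annotated exon. They come from RefSeq (build GRCm38.p6, an older build than the authors' GRCm39), and 34 of the 43 collagen genes matched the table. Col3a1, the type III fibril chain, is at chr1:45311288-45311537 on the plus strand. Col5a1, a chain of the type V collagen that nucleates fibrils, is at chr2:27886175-27886424 on the plus strand. Col6a3, a chain of the classic type VI trimer, is at chr1:90843972-90844221 on the minus strand. Col6a5, a chain that can replace the product of Col6a3, is at chr9:105960644-105960893 on the minus strand. Capitals mark TATAAA or GGGCGG on either strand; neither these nor CCAAT were found in the Col6a3 window.
Col3a1: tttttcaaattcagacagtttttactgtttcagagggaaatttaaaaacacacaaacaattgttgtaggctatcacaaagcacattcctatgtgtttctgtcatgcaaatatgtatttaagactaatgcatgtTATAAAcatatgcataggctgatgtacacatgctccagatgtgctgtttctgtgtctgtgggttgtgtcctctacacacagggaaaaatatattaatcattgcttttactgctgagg
Col5a1: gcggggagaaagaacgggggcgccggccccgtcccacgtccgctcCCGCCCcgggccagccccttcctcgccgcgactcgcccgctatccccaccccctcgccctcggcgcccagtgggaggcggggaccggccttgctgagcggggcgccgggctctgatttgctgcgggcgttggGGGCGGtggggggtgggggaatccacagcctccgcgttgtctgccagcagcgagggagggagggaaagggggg
Col6a3: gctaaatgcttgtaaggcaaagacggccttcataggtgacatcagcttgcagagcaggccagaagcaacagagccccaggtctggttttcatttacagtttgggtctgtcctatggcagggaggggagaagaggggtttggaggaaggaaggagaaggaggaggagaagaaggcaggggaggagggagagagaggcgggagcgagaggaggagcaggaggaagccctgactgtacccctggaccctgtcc
Col6a5: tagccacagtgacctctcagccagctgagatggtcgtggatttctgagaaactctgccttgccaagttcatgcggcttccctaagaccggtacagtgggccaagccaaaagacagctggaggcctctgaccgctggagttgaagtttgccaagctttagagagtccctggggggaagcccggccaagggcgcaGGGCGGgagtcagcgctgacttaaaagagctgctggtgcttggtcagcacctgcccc

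The Col3a1 window held TATAAA 117 bases before the start, Col5a1 held GGGCGG at 205 and 73 bases, and Col6a5 held it at 57 bases. Over the 37 windows of the 34 collagen genes, GGGCGG was present in 59.5%, against 32.7% of all 32851 windows of the same length. CCAAT was present in 35.1% against 33.8%, and TATAAA in 10.8% against 12.4%. The motifs do not overlap one another in their letters, and a match describes the sequence only. Several collagen genes start next to a partner: Col4a1 and Col4a2 start 21 bases apart on opposite strands of chromosome 8, and Col4a5 and Col4a6 start 1343 bases apart on opposite strands of the X chromosome.

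Levels between genes were compared as CPM per kilobase of the longest protein-coding transcript (GENCODE). These levels were scaled over all 20 libraries together, unlike the CPM given elsewhere, which were scaled within a tissue. In WT eWAT the highest collagen was Col3a1 at 209 ± 116 CPM per kb (SD, n = 5). Next came Col4a1 (102 ± 64.6), Col1a2 (84.6 ± 31.1), Col4a2 (79.5 ± 48.4) and Col6a1 (77.3 ± 38.8), whose ranges over libraries overlapped, so their order is not resolved. Col1a1, Col6a2, Col5a3, Col15a1 and Col18a1 followed, at 64.1, 63.2, 41.0, 38.3 and 18.8 CPM per kb. In IR 4A eWAT the order began with the same Col3a1, at 51.6 ± 31.0 CPM per kb, ahead of Col4a1 at 38.9 ± 24.4. Col6a5 held place 11 in WT eWAT, at 16.4 ± 6.71 CPM per kb.

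Liver had another order. Col18a1, a basement membrane collagen whose fragment is endostatin and which hepatocytes express, stood far above the rest at 252 ± 28.3 CPM per kb in WT and 256 ± 9.94 in IR 4A. The second in WT liver, the type V chain gene Col5a3, reached 11.1 ± 3.18 CPM per kb, and the other collagens stood at 6.58 or less. In summed CPM, scaled within each tissue, collagens made 1068 ± 113 in WT liver and 8691 ± 4118 in WT eWAT (SD, n = 5).

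Wild-type fat and liver were compared to place the genotype changes. In the joint edgeR quasi-likelihood fit with Benjamini-Hochberg adjustment, 28 of 36 collagen genes were higher in WT eWAT at an adjusted p under 0.05, where 39.6% of the 14657 genes tested were higher. Another 4 were lower in eWAT, where 37.9% of all genes were lower. The collagen median was 3.97 on the log2 scale, against 0.052 over all genes. All 6 basement membrane and all 5 type VI genes tested were higher in eWAT: Col6a5 by 8.64 (SE 0.58, adjusted p = 9.58e-11) and Col4a1 by 3.95 (SE 0.50, adjusted p = 6.8e-07). Of the 36 genes, 26 also passed the count filter in liver alone. The others, Col6a5 among them, did not pass it in liver, so for them the filter itself favoured a higher call in eWAT. Col6a5 had 21 counts over the 5 WT liver libraries. The 4 genes higher in liver were Col18a1 (13.4-fold), Col25a1 (3.91-fold), Col27a1 (3.76-fold) and Col13a1 (2.64-fold). Col25a1 passed the count filter in liver but not in eWAT, so for it the filter favoured a higher call in liver. Col13a1 and Col25a1 encode transmembrane collagens, and Col27a1 a fibrillar chain of cartilage. Scaling moved the zero of this comparison: the median of all genes was 0.154 with RLE and 0.467 with upper-quartile scaling, where 52.2% of all genes were higher and 26.5% lower. The collagen counts were then 29 and 30 higher with 4 lower in each.

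In eWAT, most collagen genes had lower values in IR 4A than in WT, but no single one passed the test. By edgeR's quasi-likelihood test, 0 of 40 collagen genes had an adjusted p under 0.05; of all 16476 genes tested, 2 were lower (0.0121%) and 0 higher. At an unadjusted p under 0.05, 20 of 40 collagen genes were lower and 0 higher, where 9.24% and 6.62% of all genes were. The fold change was negative for 33 of 40 collagen genes, with a median log2 fold change of -0.64, against 59.9% negative and a median of -0.083 over all genes. In 10 collagen genes every IR 4A library lay below every WT library, where 3.22% of all genes did so; in none were they all above, where 2.52% of all genes were. The voom alternative called 4 collagen genes lower (0.364% of all genes) and DESeq2 16 (4.13%).

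**Figure D1:**
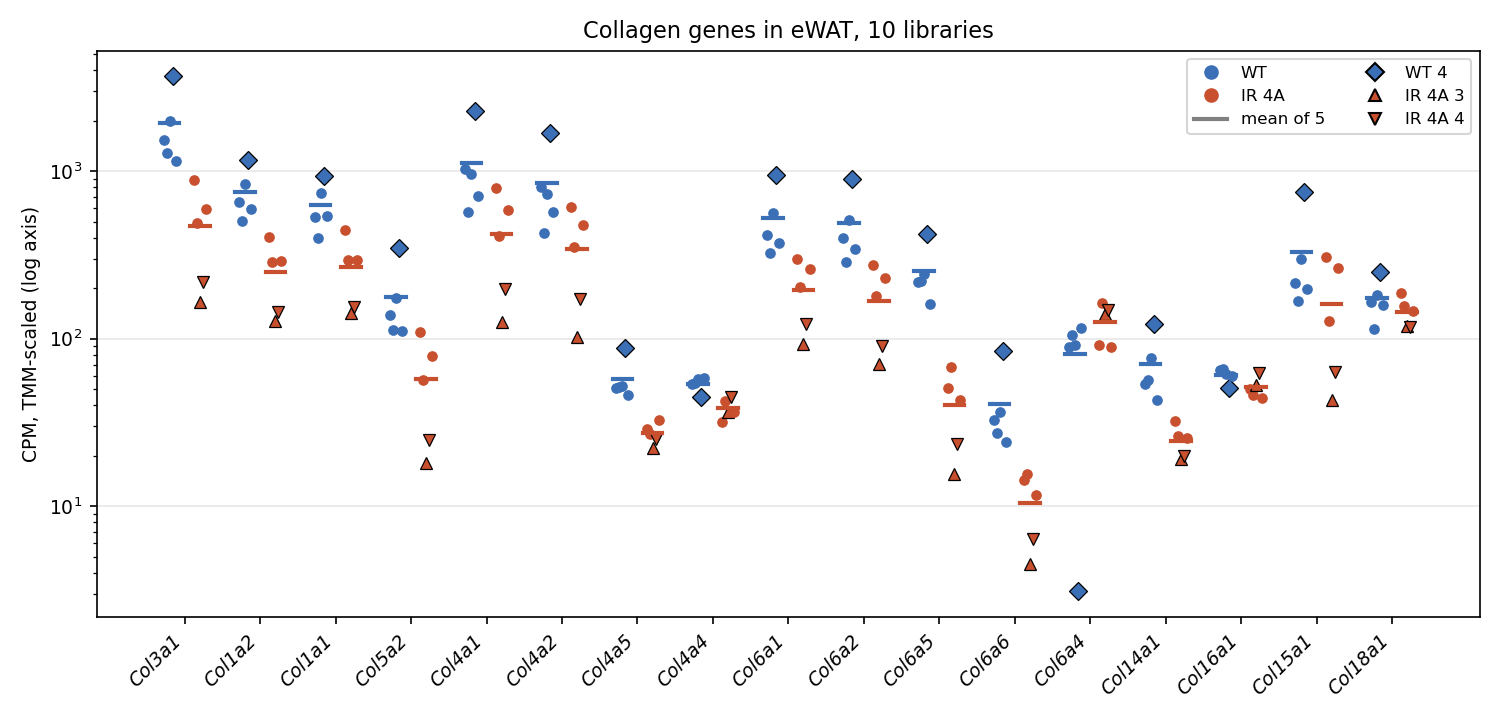
CPM (log axis) of 17 collagen genes in the 10 eWAT libraries; each point is 1 library, horizontal lines are group means, and WT 4, IR 4A 3 and IR 4A 4 have their own symbols. WT 4 is the highest library for most genes shown but the lowest for Col6a4 (3.11 CPM), and IR 4A 3 and 4 are the lowest for most.

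Type VI genes had the lowest class median in eWAT, -1.58, and 5 of 6 were lower at an unadjusted p under 0.05. Col6a5 measured 219, 222, 244, 421 and 160 CPM in WT 1 to 5 and 50.98, 67.3, 15.6, 23.4 and 43.0 CPM in IR 4A 1 to 5. All IR 4A libraries were below all WT libraries. Its fold change was 6.32-fold lower (log2 -2.66, SE 0.42, edgeR adjusted p = 0.119), the lowest adjusted p of any collagen gene in eWAT. Col6a6, its neighbour on chromosome 9 and a chain of the same kind, measured 32.5, 27.5, 36.5, 84.2 and 24.1 CPM in WT and 14.3, 15.6, 4.54, 6.41 and 11.7 CPM in IR 4A (log2 -1.96, SE 0.45, adjusted p = 0.173). These groups did not overlap either, and WT 4 stood apart above the other WT libraries.

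Col6a1 and Col6a2, whose chains are shared by every classic type VI trimer, followed each other from library to library. Col6a1 measured 416, 324, 566, 946 and 374 CPM in WT and 300, 204, 93.3, 123 and 262 CPM in IR 4A (log2 -1.42, SE 0.39, edgeR adjusted p = 0.207). Col6a2 measured 398, 288, 511, 896 and 343 CPM in WT and 274, 179, 70.2, 90.8 and 231 CPM in IR 4A (log2 -1.53, SE 0.44, adjusted p = 0.214). For both genes IR 4A 1 and 5 sat just under the lowest WT library, WT 2, while WT 4 was the highest library and IR 4A 3 and 4 were the lowest. Col6a3 overlapped in 1 library only, IR 4A 1 at 124 CPM against WT 2 at 123 CPM. Col6a4 was the exception of the class: 89.5, 105, 91.1, 3.11 and 116 CPM in WT and 92.3, 163, 141, 148 and 88.9 CPM in IR 4A. WT 4 held 0.031 times the mean of the other WT libraries, and was also the library with the lowest epididymis marker sum; the part of this tissue in the Col6a4 level was not tested.

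Among fibrillar genes, the class median in eWAT was -1.24 with 9 of 11 negative. Col3a1 measured 1542, 1276, 2006, 3677 and 1157 CPM in WT and 889, 490, 165, 219 and 596 CPM in IR 4A. The groups did not overlap, and each spanned a wide range. The mean was 4.09-fold lower in IR 4A (log2 -2.03, SE 0.51, edgeR adjusted p = 0.194). Col1a2, the second chain of type I collagen, measured 657, 503, 840, 1161 and 595 CPM in WT and 406, 287, 128, 144 and 290 CPM in IR 4A (log2 -1.58, SE 0.36, adjusted p = 0.173), again with no overlap. Its partner Col1a1 did overlap, since IR 4A 1 (449 CPM) was above WT 2 (400 CPM); its log2 fold change was -1.24 (SE 0.35). Col5a2, a type V chain, also separated the genotypes. Col27a1 differed from these: 19.7 to 21.4 CPM in WT and 16.9 to 33.2 CPM in IR 4A (log2 0.27, SE 0.18).

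All 6 basement membrane genes were negative in eWAT with unadjusted p under 0.05 and a class median of -0.84. Col4a5, a chain of specialised basement membranes, measured 50.6, 51.6, 52.5, 87.6 and 46.3 CPM in WT and 28.7, 27.0, 22.3, 25.2 and 32.7 CPM in IR 4A. WT 4 stood apart above 4 tightly grouped WT libraries, and every IR 4A library was below all of them. Its log2 fold change was -1.09 (SE 0.19, edgeR adjusted p = 0.153). Col4a4 measured 53.4, 54.3, 57.7, 44.8 and 58.2 CPM in WT and 31.9, 42.6, 36.3, 44.6 and 36.6 CPM in IR 4A (log2 -0.48, SE 0.11, adjusted p = 0.173); here WT 4 was the lowest WT library and just above IR 4A 4. The abundant Col4a1, a chain of the ubiquitous type IV network, measured 1036, 571, 964, 2286 and 707 CPM in WT and 791, 413, 126, 199 and 588 CPM in IR 4A. These groups overlapped: IR 4A 1 was above WT 2 and WT 5, and IR 4A 5 was above WT 2. Col4a2 had the same order of libraries within each genotype (log2 -1.30, SE 0.53).

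FACIT and other genes had the class medians nearest 0 with all libraries, -0.48 and -0.22. The FACIT median was the estimate of Col22a1 (SE 1.44). Without WT 4 it was -0.79, again Col22a1 (SE 1.42), so the place of FACIT among the classes is not resolved. Col14a1, which binds fibril surfaces, measured 53.3, 56.6, 76.5, 122 and 43.2 CPM in WT and 32.4, 26.3, 19.1, 19.9 and 25.4 CPM in IR 4A. The groups did not overlap, and its log2 fold change was -1.51 (SE 0.29, edgeR adjusted p = 0.164). Col16a1 spanned 50.5 to 66.4 CPM in WT and 43.9 to 62.2 CPM in IR 4A (log2 -0.25, SE 0.11), and Col12a1, a fibril-associated chain of tendon and fascia, 27.5 to 52.2 and 18.7 to 38.9 CPM (log2 -0.69, SE 0.22). Col15a1, a basement membrane collagen of capillaries and fat cells, measured 216, 168, 298, 756 and 199 CPM in WT and 308, 128, 43.2, 63.0 and 263 CPM in IR 4A. IR 4A 1 and 5 lay within the WT range, and the SE of its log2 fold change (-1.02, SE 0.62) was wide. Col18a1, its multiplexin relative, had a log2 fold change of -0.26 (SE 0.21). The chains of short-chain type VIII collagen had -0.86 for Col8a1 (SE 0.33) and -0.46 for Col8a2 (SE 0.18).

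Some collagen genes varied with sperm transcripts in eWAT. Col22a1, a FACIT of tissue junctions, measured 38.0, 76.5, 8.65, 1.06 and 1.94 CPM in WT and 0.57, 3.61, 44.2, 41.5 and 0.33 CPM in IR 4A. Col2a1, the fibril chain of cartilage, measured 6.10, 12.7, 1.21, 0.15 and 0.36 CPM in WT and 0.57, 0.89, 4.47, 9.34 and 0.33 CPM in IR 4A. Both were high in WT 1, WT 2, IR 4A 3 and IR 4A 4. Those 4 libraries also had the highest sums of 8 sperm and spermatid markers (1648, 5447, 1908 and 2572 CPM, against 134 to 645 CPM elsewhere), and all 8 were in the eWAT table. The part of these cells in the Col22a1 and Col2a1 levels was not tested.

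Several lists of cell markers, though not all, also had lower values in IR 4A eWAT. The sum of 10 fibroblast and adipose progenitor markers was 1080 to 2217 CPM in WT and 547 to 950 CPM in IR 4A, with all 10 negative. The sum of 8 endothelial markers was 447 to 1333 and 181 to 667 CPM, with all 8 negative, and that of 8 adipocyte markers 8089 to 26357 and 2433 to 13441 CPM, with all 8 negative. The macrophage sum was 297 to 917 CPM in WT and 81.6 to 222 CPM in IR 4A, with 7 of 7 tested negative, and the mesothelium sum 234 to 299 and 155 to 219 CPM, with 6 of 8 negative. The fibroblast, macrophage and mesothelium sums did not overlap between genotypes. For the fibroblast list that gap rested mainly on Dcn, its largest marker, with group means of 723 (WT) and 286 CPM (IR 4A). Lum, Pi16, Cd34, Pdgfrb, Mfap5 and Clec3b also had lower means in IR 4A. Pdgfra (139 and 137 CPM), Dpp4 (101 and 94.8 CPM) and Ly6a (50.4 and 47.3 CPM) hardly differed, so the list did not fall evenly. The epididymis sums of the genotypes did not overlap, IR 4A being above, with none of 10 markers negative. No list had a marker at 0 in all eWAT libraries. The part of the fibroblast, endothelial, macrophage and mesothelium lists in the collagen result was not tested, and fits with the adipocyte or epididymis level as a term are given with the left-out libraries. The adipocyte marker sums of IR 4A 1, 2 and 5 lay inside the WT range. Their fibroblast, macrophage and mesothelium sums were below it and their epididymis sums above it. In each of those 3 libraries 11 collagen genes, Col6a5 among them, were below every WT library, as were 4.96% of all genes tested. These 11 include the 10 genes without overlap, which meet this by definition, and Col16a1.

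Leaving out WT 4 (the wild-type eWAT library highest in most stromal genes) changed sizes and not the direction of any class median. WT 4 was the highest of 10 libraries for 20 of the 43 genes and the lowest for 7. It held 3.43 times the mean of the other WT libraries for Col15a1, 3.35 times for Col5a3, 2.79 times for Col4a1 and 2.46 times for Col3a1. Without it the class medians were -0.72 for fibrillar, -0.71 for basement membrane, -1.21 for type VI, -0.79 for FACIT and -0.31 for other genes, and -0.70 over all collagen genes. The fibrillar median thus came nearer 0. Both FACIT medians were the estimate of Col22a1, with SE of 1.44 and 1.42, so their shift away from 0 is not resolved. Col25a1 entered the other class only without WT 4 (log2 -0.63), so the 2 medians of that class cover unlike sets of genes. By gene, the log2 fold change became -1.66 for Col3a1, -0.95 for Col4a1, -0.44 for Col15a1, -0.88 for Col4a5 and -2.39 for Col6a5. The adjusted p of Col6a5 was then 0.203, and 0 of the 41 collagen genes tested passed, in a fit where 0 of 17091 genes passed in either direction. In 9 of the 10 genes without overlap WT 4 was the highest library, so those gaps do not rest on it. Without WT 4, 13 collagen genes did not overlap with IR 4A below (3.51% of all genes), the added ones being Col4a3, Col11a1 and Col12a1.

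**Figure D2:**
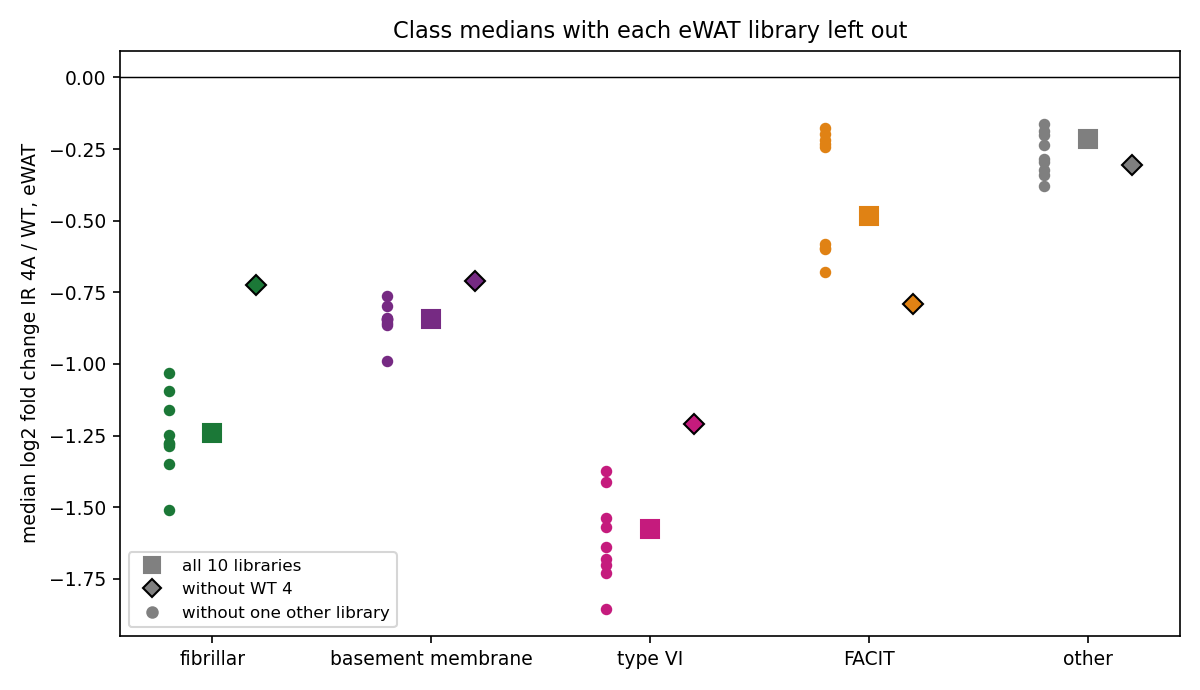
Median log2 fold change of IR 4A against WT in eWAT by collagen class; squares use all 10 libraries, diamonds leave out WT 4 and circles leave out 1 other library. Every median is below 0, and without WT 4 the fibrillar median is -0.72 in place of -1.24.

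IR 4A 3 and 4 were examined in the same way after their values were seen. IR 4A 3 was the lowest of 10 libraries for 22 of 43 collagen genes. Without both, the log2 fold change of Col6a5 was -2.23 (SE 0.34, edgeR adjusted p = 0.339), that of Col3a1 -1.55 (SE 0.44) and that of Col15a1 -0.49 (SE 0.56), with 0 collagen genes called. With the epididymis marker level as a covariate, Col6a5 had -2.12 (SE 0.48) and Col3a1 -1.22 (SE 0.51), with an edgeR adjusted p of 0.741 each and 0 called. The epididymis sums of the genotypes did not overlap, so this fit cannot tell that level and genotype apart. With the adipocyte marker level as a covariate, Col6a5 had -2.13 (SE 0.25, adjusted p = 0.0261) and 16 of 40 collagen genes were called lower, in a fit that called 5.58% of all genes lower. The 3 fits were chosen after seeing the data and differ in their calls. Col6a5 was at least 2 log2 units lower in each, while Col15a1 lay between -0.49 and 0.079.

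**Figure D3:**
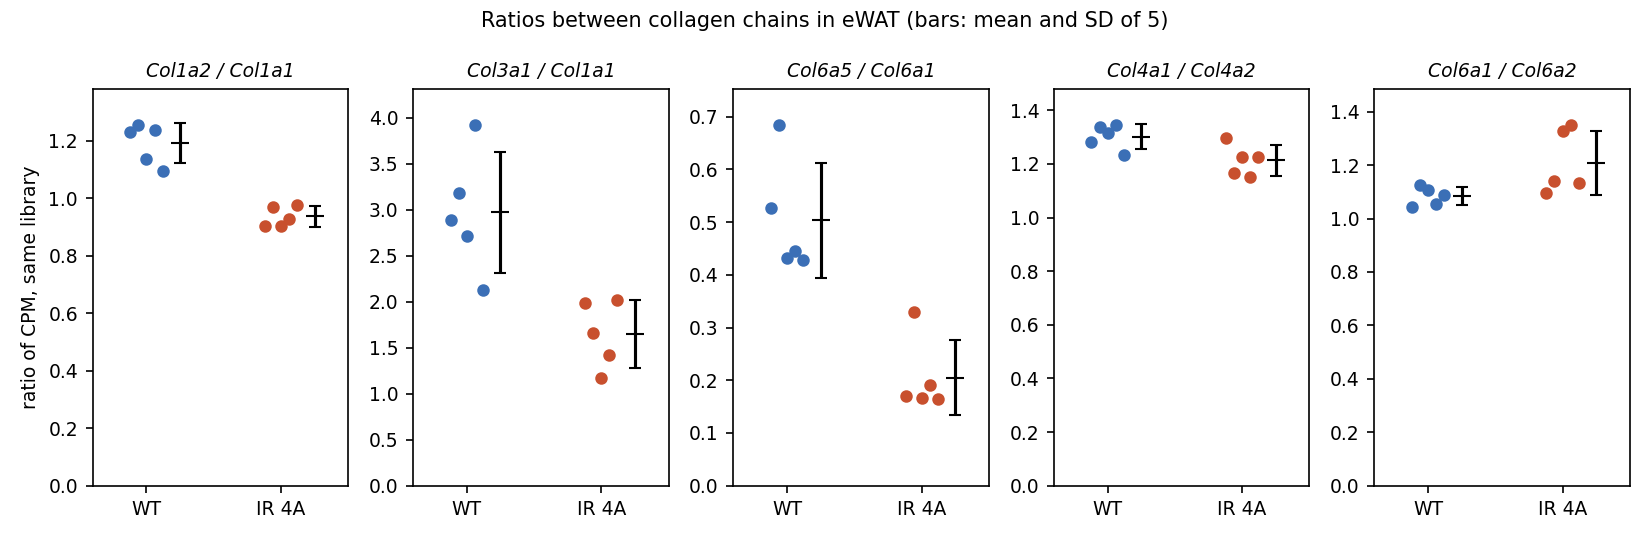
Ratios of CPM between pairs of collagen chains within the same eWAT library, with the mean and SD of 5 libraries beside the points. The Col1a2 to Col1a1, Col3a1 to Col1a1 and Col6a5 to Col6a1 ratios are lower in every IR 4A library, while the Col4a1 to Col4a2 and Col6a1 to Col6a2 ratios overlap.

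Ratios between collagen chains were then read within each eWAT library, where a scaling factor cancels; the pairs were chosen after the values were seen and carry no test. Col6a5 to Col6a1 was 0.527, 0.684, 0.432, 0.445 and 0.429 in WT and 0.170, 0.330, 0.167, 0.191 and 0.164 in IR 4A. WT 4, the outlying library for absolute level, had an ordinary ratio, as did IR 4A 3 and 4. Col1a2 to Col1a1 was 1.10 to 1.26 in WT and 0.902 to 0.978 in IR 4A, and Col3a1 to Col1a1 was 2.13 to 3.92 and 1.17 to 2.02. These 3 ratios did not overlap between genotypes. Col3a1 to Col5a2, which are adjacent genes, was 10.4 to 11.5 in WT and 7.61 to 9.13 in IR 4A, without overlap as well. By contrast Col4a1 to Col4a2 (1.23 to 1.35 against 1.15 to 1.30) and Col6a1 to Col6a2 (1.05 to 1.12 against 1.10 to 1.35) overlapped. All other pairs read overlapped too: Col5a1 to Col5a2, Col4a3 to Col4a4, Col4a5 to Col4a6 and Col4a5 to Col4a1. The rest were Col6a3 to Col6a1, Col6a6 to Col6a1, Col14a1 to Col1a1 and Col15a1 to Col18a1. The share of other gene pairs without overlap was not measured. A ratio shows unequal change of a pair, not which gene of it changed.

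In liver the collagen values leaned the other way, again with none past the threshold. By edgeR's quasi-likelihood test 0 of 26 collagen genes passed, where 1 of 12421 genes did, in the lower direction (0.00805%). The fold change was positive for 16 of 26, with a median of 0.28, against 51% positive and a median of 0.0048 over all genes. The class medians were 0.28 for fibrillar, 0.42 for basement membrane, 0.41 for type VI, 0.35 for FACIT and -0.57 for other genes, of which 3 of 5 were negative. At an unadjusted p under 0.05, 5 collagen genes were higher (8.6% of all genes) and 2 lower (9.48%). In 5 collagen genes every IR 4A library was above every WT library, where 1.68% of all genes were; in none were they all below, where 1.83% of all genes were. DESeq2 called 3 of them higher, Col14a1, Col16a1 and Col6a3, where it called 1.63% of all genes.

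**Figure D4:**
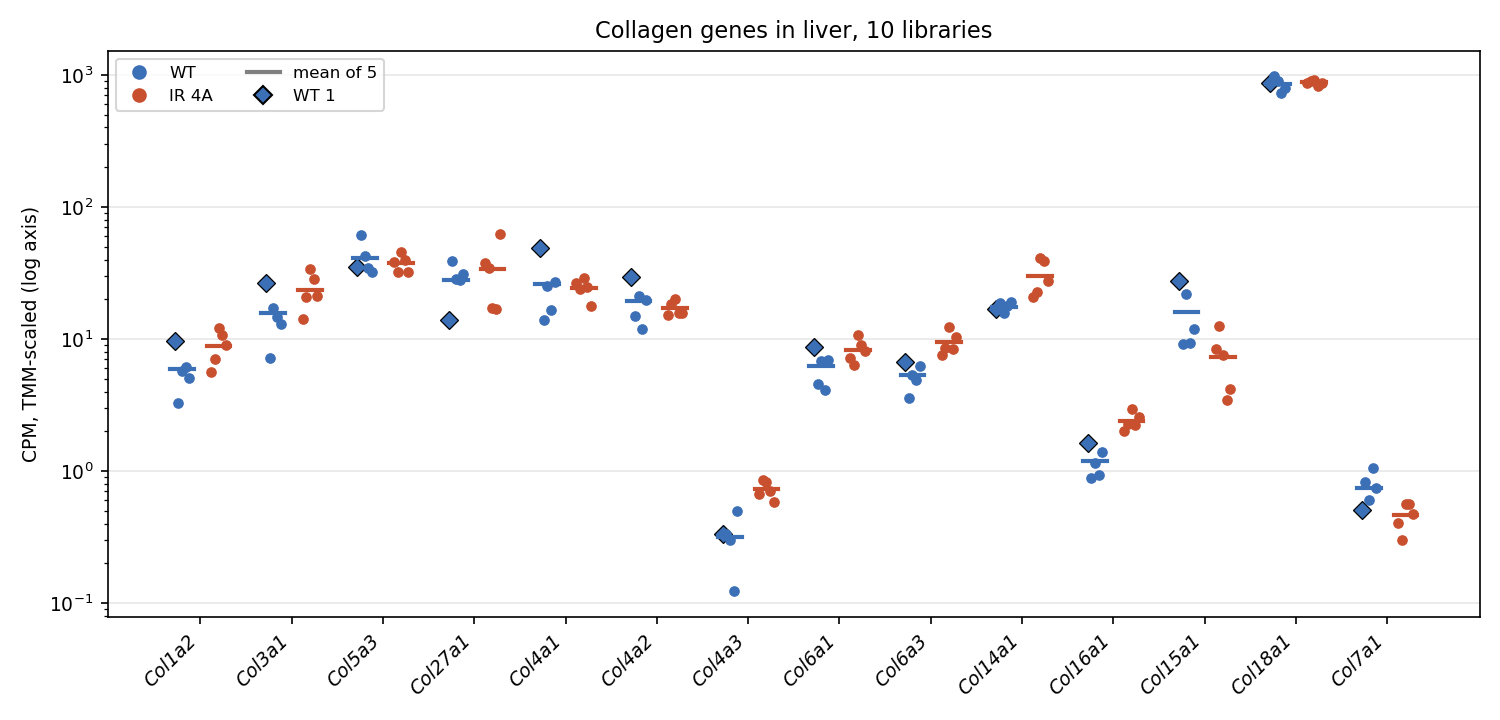
CPM (log axis) of 14 collagen genes in the 10 liver libraries; each point is 1 library and lines are group means, with WT 1 marked. Col6a3, Col14a1, Col16a1 and Col4a3 separate the genotypes, Col18a1 lies between 723 and 973 CPM in all 10 libraries, and WT 1 is the highest for Col4a1 and Col15a1.

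The FACIT genes Col14a1 and Col16a1 and the type VI gene Col6a3 separated the genotypes in liver. Col14a1 measured 16.8, 18.7, 15.7, 17.7 and 19.1 CPM in WT and 20.6, 22.7, 40.9, 38.9 and 27.3 CPM in IR 4A. The WT libraries were tightly grouped and the IR 4A ones spread upward from just above them, with IR 4A 3 and 4 highest (log2 0.77, SE 0.18, edgeR adjusted p = 0.115). Col16a1 measured 1.63, 0.88, 1.15, 0.93 and 1.39 CPM in WT and 2.01, 2.26, 2.97, 2.21 and 2.58 CPM in IR 4A, 2.0-fold higher (log2 1.00, SE 0.22, adjusted p = 0.112). It rested on 111 counts over the WT libraries and 265 over the IR 4A ones. The authors' deposited table did not show this difference: its log2 fold change for Col16a1 in liver was -0.066 (SE 0.50, adjusted p = 0.967), and the cause was not tested. Col6a3 measured 6.73, 3.59, 5.35, 4.87 and 6.22 CPM in WT and 7.58, 8.48, 12.3, 8.43 and 10.4 CPM in IR 4A (log2 0.82, SE 0.18, adjusted p = 0.112). Without IR 4A 1, Col14a1 and Col6a3 passed the threshold, in a fit that called 0.637% of all genes higher and 0.502% lower. Of the other FACIT genes tested, Col12a1 spanned 1.88 to 5.94 CPM in WT and 2.29 to 3.36 CPM in IR 4A (log2 -0.41, SE 0.29), and Col20a1 also overlapped (log2 -0.07, SE 0.34).

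Other liver collagens followed at low or variable levels. Col4a3 and Col4a4, the chains of the type IV network of the kidney filter, reached 0.32 ± 0.13 and 0.21 ± 0.25 CPM in WT and 0.73 ± 0.11 and 0.79 ± 0.17 CPM in IR 4A (SD, n = 5). They did not overlap, but the WT totals were 30 and 21 counts over 5 libraries (Col4a3 log2 1.16, SE 0.32; Col4a4 3.47-fold higher in IR 4A, SE 0.63 on the log2 scale). Col3a1 measured 26.3, 7.23, 17.3, 14.7 and 13.0 CPM in WT and 14.1, 20.8, 33.6, 28.5 and 21.1 CPM in IR 4A, and the groups overlapped, IR 4A 1 lying below WT 1, 3 and 4 (log2 0.59, SE 0.30). Col1a2 (log2 0.58, SE 0.27), Col1a1 (log2 0.55, SE 0.51) and Col6a1 (log2 0.41, SE 0.21) also overlapped. Col15a1 measured 27.6, 9.10, 21.8, 9.25 and 11.9 CPM in WT and 8.47, 12.5, 7.59, 3.44 and 4.21 CPM in IR 4A (log2 -1.14, SE 0.39, edgeR adjusted p = 0.181), with WT 1 and 3 the highest. Col5a3, a type V chain and the most abundant fibrillar gene in liver, spanned 32.0 to 61.3 CPM in WT and 32.0 to 45.2 CPM in IR 4A (log2 -0.13, SE 0.17). Col27a1 spanned 14.0 to 38.8 and 16.9 to 62.8 CPM (log2 0.27, SE 0.35). The ubiquitous type IV chains had small negative estimates with overlap: Col4a1 spanned 14.0 to 48.6 and 17.9 to 29.2 CPM (log2 -0.10, SE 0.28), and Col4a2 11.96 to 29.4 and 15.2 to 20.0 CPM (log2 -0.19, SE 0.20). WT 1 was the highest library for both type IV chains. Col7a1, the anchoring fibril gene, was at most 1.05 CPM in every library (log2 -0.67, SE 0.29). Col18a1 measured 853 ± 95.02 CPM in the WT libraries and 878 ± 33.7 in the IR 4A ones (SD, n = 5), a log2 difference of 0.042 with a 95% interval from -0.15 to 0.23.

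Sums of fibroblast and stellate cell markers leaned to higher values in IR 4A liver, and both overlapped between genotypes. The sum of the fibroblast markers (9 of 10 in the table) was 171 to 202 CPM in WT and 198 to 260 CPM in IR 4A, with 0 of 7 tested negative. The 10 stellate cell markers summed to 110 to 147 CPM and 131 to 218 CPM, with 1 of 10 negative, and IR 4A 3 and 4 were highest (213 and 218 CPM), as for Col14a1. Most of the fibroblast sum came from Dpp4 (means 98.8 CPM for WT, 137 CPM for IR 4A) and Dcn (66.6 and 88.3 CPM). The other markers of that list had means of 5.97 CPM or less. Their means were also higher in IR 4A, those of Lum and Ly6a only slightly. The lean of the fibroblast sum is thus mainly that of Dpp4 and Dcn. The part of fibroblasts and stellate cells in the liver values was not tested.

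The difference between tissues was tested directly, as the interaction of genotype and tissue over all 20 libraries. Here 9 of 36 collagen genes passed at an edgeR adjusted p under 0.05, all with the IR 4A effect lower in eWAT than in liver; 1.05% of the 14657 genes tested passed in that direction and 1.3% in the other. They were Col3a1 (-2.59, SE 0.61, adjusted p = 0.0339) and Col1a2 (-2.12, SE 0.46, adjusted p = 0.0284) of the fibrillar genes. Of the basement membrane genes they were Col4a3 (-1.53, SE 0.29), Col4a4 (-2.21, SE 0.55) and Col4a5 (-1.45, SE 0.36). The WT liver libraries together held only 30 counts of Col4a3 and 21 of Col4a4. The type VI genes were Col6a1 (-1.79, SE 0.46) and Col6a3 (-2.41, SE 0.54), and the FACIT genes Col14a1 (-2.24, SE 0.35, adjusted p = 0.0189) and Col16a1 (-1.18, SE 0.22, adjusted p = 0.0189). All values are log2 differences of eWAT minus liver. None of the 10 genes of the other class passed. The collagen median was -1.15, against -0.039 over all genes. For all 9 genes the liver estimate was positive and the eWAT estimate negative, but neither tissue alone had a called collagen gene. The joint fit used 1 spread per gene for both tissues, though biological variation was 18.7% in liver and 51.2% in eWAT. In that joint fit the eWAT comparison called 10 collagen genes lower (1.41% of all genes), against 0 in eWAT alone. How far the interaction calls rest on the shared spread was not tested. With the replicate number as a block, 0 collagen genes and 0 genes in all passed. The labels do not say whether liver and eWAT libraries of 1 number came from 1 mouse. A fit chosen after seeing the data, with a block for each genotype and number, also called 0 genes, with a collagen median of -1.22; of the 9 genes, Col14a1, Col16a1 and Col4a3 had the lowest edgeR adjusted p there, 0.0855.

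**Figure D5:**
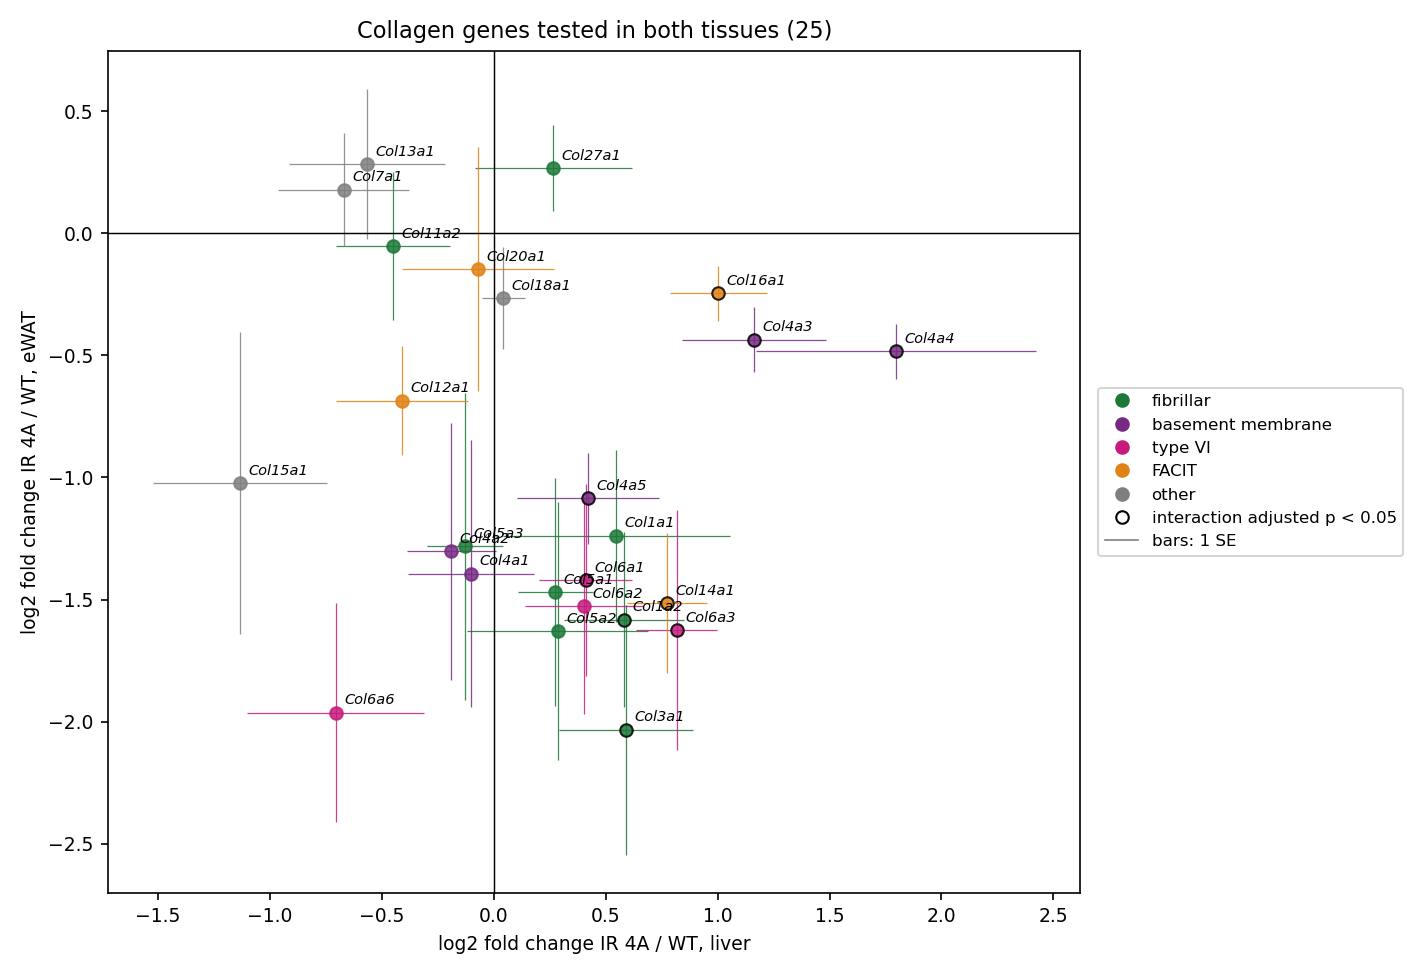
Log2 fold change of IR 4A against WT in liver (horizontal) and eWAT (vertical) for the 25 collagen genes tested in both tissues, coloured by class, with bars of 1 SE and black rims where the interaction passed. Of the 25, 14 lie in the lower right quadrant, higher in liver and lower in eWAT, and 8 lie in the lower left, Col15a1 and Col6a6 among them.

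Of the 25 collagen genes tested in both tissues, 14 (56%) had a positive liver and a negative eWAT estimate, where 33.3% of 11969 genes did. These signs are estimates, and within a tissue none of them reached a call. By class the share was 5 of 8 fibrillar, 3 of 5 basement membrane, 3 of 4 type VI, 2 of 4 FACIT and 1 of 4 other genes. Another 8 (32%), Col15a1, Col6a6, Col4a1 and Col4a2 among them, had negative estimates in both tissues, where 25.3% of all genes did. Col13a1 and Col7a1 went the other way, negative in liver and positive in eWAT.

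The interaction calls depended on single libraries. Without eWAT WT 4, 6 genes passed (0.652% of all genes in that direction), all among the 9, and Col3a1 (-2.20), Col4a5 (-1.23) and Col6a1 (-1.45) no longer passed. Leaving out liver IR 4A 3, 4 or 5 or eWAT IR 4A 3 or 4 left 3 calls each (0.217% to 0.401% of all genes in that direction). Leaving out liver WT 4, liver IR 4A 2 or eWAT IR 4A 2 left 4 calls (0.4% to 0.529%), leaving out liver WT 1 or eWAT WT 3 left 5 (0.502% and 0.632%), and leaving out liver WT 5 or eWAT WT 1 left 6 (0.8% and 0.851%). Col14a1, Col16a1 and Col4a3 passed whichever of the 20 libraries was left out. In liver, Col4a3 rested on 30 counts over the WT libraries and 80 over the IR 4A ones. Without eWAT IR 4A 3 and 4 together, a fit chosen after seeing the data, Col16a1 alone passed of the collagen genes (0.0203% of all genes), the gene whose liver change the authors' deposited table did not show.

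The genes that modify, export, crosslink, bind and break down collagen were read from a list of 52. None of the 48 tested in eWAT or the 39 tested in liver passed edgeR's test, with lowest adjusted p of 0.164 and 0.115. The eWAT fold change was negative for 40 of 48, where 59.9% of all genes were negative. The median was -0.64, much like that of the collagen genes. The crosslinking enzymes had the lowest median, -1.46 over 5 genes, with Lox at -1.51 and Loxl2 at -1.48. The procollagen C-proteinase enhancers Pcolce2 and Pcolce had -2.57 and -0.83, the prolyl hydroxylase subunits P4ha1 and P4ha2 -0.89 and 0.68, and the collagen receptors Antxr1 and Itga11 -1.73 and -1.57. Mmp2 and Mmp9, which degrade matrix, had -1.57 and -1.51. In liver 23 of 39 were positive with a median of 0.084, where 51% of all genes were positive. Adamts14 and Adamts2, which trim procollagen, had 0.97 and 0.72, and the collagen receptor genes Antxr1 and Ddr2 0.81 and 0.66. The hydroxylation and chaperone genes split into 8 positive and 8 negative, and Ppib and Plod3 among them had -0.35 and -0.25. The crosslinking genes Loxl3 and Loxl2 had 0.43 and 0.22, and Mmp2 and Mmp14 had 0.50 and -0.29.

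The authors' deposited table, made from the same libraries, listed 10 collagen genes lower and 0 higher in IR 4A eWAT at an adjusted p under 0.05, of 39 with an adjusted p. Over all genes the authors' deposited table listed 1.73% lower and 0.972% higher in eWAT. In the authors' deposited table Col6a5 had a log2 fold change of -2.67 (SE 0.39, adjusted p = 1.35e-08), Col3a1 -2.12 (adjusted p = 0.00626) and Col14a1 -1.17 (adjusted p = 0.0111). For liver the authors' deposited table listed Col14a1 as higher (0.73, adjusted p = 0.0249) and Col15a1 as lower (-1.45, adjusted p = 0.0255), where it listed 1.16% of all genes higher and 1.34% lower. The sign of the authors' deposited fold change matched that of the edgeR estimate for 37 of 40 collagen genes in eWAT and 24 of 26 in liver. In liver the exceptions in the authors' deposited table were Col16a1 (-0.066, against 1.00 by edgeR) and Col7a1 (0.060, against -0.67). In eWAT they were, in the authors' deposited table, Col12a1 (0.26, against -0.69), Col11a2 (0.22, against -0.052) and Col9a3 (-0.28, against 0.090).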

How the data were processed

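Poly-A RNA of 20 libraries was made into stranded libraries and read as paired 100-base reads, per the labels' protocols. The authors deposited estimated counts per gene, rounded to whole numbers and limited to genes with a symbol; Salmon 1.8.0, DESeq2 1.32.0 and GRCm39 are named in the submitters' processing notes, with no further settings. The authors' deposited comparison tables give a mean signal per gene, log2 fold changes with their SE, and p-values. From the counts, edgeR 4.0.16 (R 4.3.3) was run with TMM scaling, filterByExpr (minimum count 10, minimum total 15) and the quasi-likelihood test, two-sided, with Benjamini-Hochberg adjustment over all genes tested and a threshold of 0.05. The genotype comparison was fitted within each tissue, and the interaction and the WT tissue comparison on all 20 libraries. CPM and summed CPM are TMM-scaled within a tissue, so such sums set across tissues rest on separate scalings. CPM per kilobase use the TMM factors of the joint fit of all 20 libraries. The 2 scales differ, so a value per kilobase does not convert to the CPM of the same gene. Rows with a repeated identifier were dropped (83 in liver and 208 in eWAT, none a collagen). No pair of libraries was a duplicate (the lowest chi-square per df within a group was 11.8).

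Alternatives were other scalings and filters, DESeq2 1.42.0, limma 3.58.1 voom with sample weights, replicate blocks and each library left out. On simulated data with the real means and library sizes the fit recovered 39.2%, 82.9% and 100% of genes changed by 0.5, 1 and 2 log2 units in liver (12421 genes), and 1.72%, 21.7% and 71.4% in eWAT (16476 genes). Genes were simulated independently, without shifts shared by a whole library, and only genes above a minimum mean count were changed. False calls numbered 6 in liver and 2 in eWAT. Biological variation (BCV) was 18.7% in liver and 51.2% in eWAT.

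Genes named by rule were, in each class and tissue, the 2 with the highest mean CPM and the 2 with the smallest p, and any past the threshold; others named were chosen after their values were seen. The members and gene lists were chosen with earlier results of these data known. Reads shared between similar collagen genes are split by Salmon's estimate. The deposited normalized counts were not used here.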

Additional observations from a re-analysis of the deposited data

Results flagged for a closer look

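Collagen genes and class sums were searched for a library far from the other 4 of its group, in 90 groups of 5. Chance alone gives about 1 in 20 groups where groups are independent. These groups are not, since collagen genes vary together and the class sums hold the same genes, so a count cannot be read against that rate. In all, 7 far libraries were found. WT 4 was the far library in 6 of them, all in eWAT: Col4a1 (2286 CPM), Col4a5 (87.6 CPM), Col6a6 (84.2 CPM), Col15a1 (756 CPM), Col8a1 (13.9 CPM) and the summed basement membrane genes (4174 CPM). The other was IR 4A 1 in eWAT for Col8a1 (11.5 CPM, against 3.72 to 4.83 CPM in the other IR 4A libraries).

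By the interaction test, which used 1 spread per gene for both tissues, the IR 4A effect differed between eWAT and liver for 9 collagen genes. The log2 differences of eWAT minus liver were -2.59 for Col3a1, -2.41 for Col6a3, -2.24 for Col14a1, -2.21 for Col4a4, -2.12 for Col1a2, -1.79 for Col6a1, -1.53 for Col4a3, -1.45 for Col4a5 and -1.18 for Col16a1.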

How the results depend on the processing

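The self-test above covers independent, well-counted genes at this depth and spread, and in eWAT it missed most changes of 1 log2 unit. It held no shift shared by a whole library, so it does not set what these libraries can show. Collagen calls in eWAT were 0 with all libraries and whichever library was left out, 16 with DESeq2, 4 with voom, 10 in the fit of all 20 libraries and, chosen after seeing the data, 16 with the adipocyte covariate. All genes called in eWAT were 2, and 1 with upper-quartile scaling, 0 with no filter, 1 with a 1 CPM filter, 1204 with DESeq2, 78 with voom, 339 in the fit of all 20, 0 and 976 with the epididymis and adipocyte covariates, and 0 to 6 with a library left out. Collagen calls in liver were 0, and 3 with DESeq2, 1 in the fit of all 20 and 0 to 2 with a library left out. All genes called in liver were 1, and 451 with DESeq2, 4 with voom, 21 in the fit of all 20, 0 without WT 1 and 3, and 0 to 143 with a library left out. Interaction calls were 9 collagen and 345 genes in all, 1265 and 928 genes with DESeq2 and voom, 1 and 3 without eWAT IR 4A 3 and 4, and 3 to 10 and 33 to 809 with a library left out; the collagen median was -0.81 without eWAT IR 4A 3 and 4 and -1.37 to -0.98 with a library left out. The collagen median of WT eWAT against WT liver was 4.37 with upper-quartile scaling and 3.53 to 4.24 with a library left out.

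With the replicate number as a block, 0 collagen genes and 0 genes in all passed the interaction test, 0 genes in eWAT and 3 genes in liver. With a block for each genotype and number, chosen after seeing the data, 0 collagen genes and 0 genes in all passed the interaction. The deviations of same-numbered libraries were not all positively correlated: r ran for WT with IR 4A libraries from -0.072 to 0.077 in liver and from -0.73 to 0.67 in eWAT, and liver with eWAT libraries of a genotype from -0.164 to 0.069. Whether a number marks 1 mouse is not given in the labels.

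These estimates changed sign, none of them called: in liver Col5a3 (0.053 without WT 2, and -0.21 to 0.053 over all left-out libraries), Col27a1 (-0.081 without IR 4A 5; -0.081 to 0.43), Col18a1 (-0.012 without WT 4; -0.012 to 0.085), Col4a1 (0.064 with voom, 0.0092 with the block, 0.24 without WT 1, 0.35 without WT 1 and 3; -0.27 to 0.24) and Col4a2 (0.0079 without WT 1, 0.13 without WT 1 and 3; -0.32 to 0.0079). In eWAT they were Col15a1 (0.079 with the epididymis covariate) and Col18a1 (0.069 with the epididymis and 0.045 with the adipocyte covariate). The cause of these changes was not tested.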
